A study of Mus musculus with 20 samples.

Results

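The genes described here are *Trp53*, its inhibitors *Mdm2* and *Mdm4*, and 6 genes that p53 switches on directly, *Ccng1*, *Phlda3*, *Zmat3*, *Sesn2*, *Trp53inp1* and *Aen*. They were taken by name and are 9 of the 24315 genes listed in each of 2 tables, one for LSK cells and one for MEP cells. LSK cells (Lin-Sca1+Kit+) hold the stem and early progenitor cells of the bone marrow (BM), and MEP are the megakaryocyte-erythroid progenitors. Both were sorted by FACS from the BM of C57BL/6 mice of 4 genotypes, with 10 libraries of polyA RNA per cell type. Of these, 3 were WT, 3 *Dnmt3a*-/-, 2 *Bcor*-/- and 2 *Bcor*-/-*Dnmt3a*-/- (double knockout), and every mouse or pool gave 1 library of each cell type. The knockouts were conditional, made with *Mx1-Cre*, an interferon-inducible recombinase that is induced with pIpC and acts in hematopoietic stem cells as well as in other tissues. The WT mice carried untargeted *Bcor* and *Dnmt3a*, and the library names have WT where those of the knockouts have Cre. The *Bcor* allele loses exons 8 to 10, which leaves an RNA with a polyA tail that the study describes as unstable. The study also describes the loss of *Dnmt3a* as incomplete in its *Dnmt3a*-/- mice, which limits what a lack of calls in them can say. One *Bcor*-/- sample of each cell type was a pool of 2 mice by its label. The labels give neither age nor disease stage. The study describes its double knockout mice as leukemic, with acute erythroid leukemia, so that genotype and leukemia cannot be told apart in these comparisons.

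p53 is a transcription factor that is kept low by MDM2, which binds it and tags it for degradation, and by MDM4, a relative of MDM2 that masks its activation domain. When DNA damage or other stress releases p53 from both, it turns on genes of cell cycle arrest, repair, metabolism and apoptosis, and *Mdm2* itself, which closes a feedback loop. In hematopoietic stem and erythroid cells p53 holds back proliferation and drives the death of damaged cells, and p53 is controlled mostly as a protein, so that the RNA level of *Trp53* does not give its activity. The RNA of its targets is the usual readout, and each target also answers to other factors.

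p53 binds DNA as a tetramer, on pairs of a half-site of 10 letters. To show where such letters stand in these genes, the half-site consensus was searched in the RefSeq promoter windows of GRCm38.p6, which run from 250 bases before to 50 bases after a transcription start. The half-site is its own reverse complement, so 1 search covers both strands. Windows were found for 7 of the 9 genes, all but *Zmat3* and *Trp53inp1*. A half-site without mismatch was present in 4 of these 7 genes, *Trp53*, *Mdm2*, *Ccng1* and *Aen*. Counted by window, it was in 5 of their 9 windows and in 8.36% of the 32851 windows of all genes. A pair of adjacent half-sites with at most 2 mismatches in 20 letters was found in *Ccng1* alone among them, and in 0.798% of all windows. One window with a match is printed below for each of the 4 genes, on its gene's strand from 5′ to 3′, with the matching letters in capitals. The match of *Trp53* (chr11:69580109-69580408, plus strand) starts at -75 from the transcription start and that of *Mdm2* (chr10:117710709-117711008, minus strand) at -186. The pair of *Ccng1* (chr11:40755237-40755536, minus strand) starts at -195 and has 1 mismatch. The match of *Aen* (chr7:78895677-78895976, plus strand) starts at 11, behind the first of its listed starts. A second *Aen* window (chr7:78895808-78896107), not printed, overlaps the first and holds its match at -121. The windows of *Mdm4*, *Phlda3* and *Sesn2* hold no such letters, which says nothing about sites elsewhere in these genes.
*Trp53*: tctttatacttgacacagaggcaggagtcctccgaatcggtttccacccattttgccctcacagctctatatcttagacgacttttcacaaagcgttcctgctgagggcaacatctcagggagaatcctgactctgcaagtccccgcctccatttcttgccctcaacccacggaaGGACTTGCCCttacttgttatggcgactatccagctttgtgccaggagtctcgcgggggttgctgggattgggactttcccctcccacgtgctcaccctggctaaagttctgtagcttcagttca
*Mdm2*: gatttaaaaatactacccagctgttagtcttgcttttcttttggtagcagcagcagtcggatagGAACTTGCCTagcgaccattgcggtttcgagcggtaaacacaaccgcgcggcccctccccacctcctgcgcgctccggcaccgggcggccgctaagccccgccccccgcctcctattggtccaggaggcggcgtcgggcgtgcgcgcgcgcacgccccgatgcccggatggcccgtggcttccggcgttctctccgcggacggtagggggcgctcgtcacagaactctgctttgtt
*Ccng1*: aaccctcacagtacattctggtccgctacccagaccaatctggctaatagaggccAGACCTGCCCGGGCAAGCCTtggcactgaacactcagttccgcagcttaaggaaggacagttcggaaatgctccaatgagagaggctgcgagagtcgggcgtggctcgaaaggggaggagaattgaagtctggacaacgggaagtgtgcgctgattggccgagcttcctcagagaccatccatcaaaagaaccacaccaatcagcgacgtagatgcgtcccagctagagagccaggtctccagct
*Aen*: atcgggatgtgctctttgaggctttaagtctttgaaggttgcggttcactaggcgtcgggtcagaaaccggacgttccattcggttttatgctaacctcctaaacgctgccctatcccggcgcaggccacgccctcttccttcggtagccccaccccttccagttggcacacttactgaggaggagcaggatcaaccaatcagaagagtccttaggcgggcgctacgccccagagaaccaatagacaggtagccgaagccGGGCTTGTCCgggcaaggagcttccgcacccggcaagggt

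Levels are given as FPKM, read fragments per kilobase of a transcript's length and relative to all those mapped, so that genes of unequal length can be compared. All 9 genes passed the minimum of 1 FPKM in the mean of a cell type's libraries, among 11952 genes tested in LSK and 10933 in MEP. *Zmat3* passed in LSK only through the double knockout, since its mean over the other 8 LSK libraries was 0.877 FPKM. Fold changes are differences of mean log2(FPKM + 1), which understates the changes of genes at low level, and come from limma with all 4 genotypes in 1 model. A call required a fold change of more than 1.5 together with p under 0.05 before adjustment, and the Benjamini-Hochberg adjusted p over all tested genes is given beside it. An exact permutation test, two-sided, cannot go below 0.1 with 2 against 3 libraries. The tables were scaled separately, so that levels in LSK and MEP are given side by side without a test. Replicates are different mice. The number of reads behind a value is unknown, since the tables hold no counts.

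The double knockout libraries stood apart from the others before any member is considered. The correlation of log2 values between libraries of 1 genotype was 0.971 or higher in the other groups, and 0.849 in LSK and 0.815 in MEP between the double knockout mice. Many genes that define other cells differed in them too. The 9 measured genes of maturing erythroid cells, summed, went from 40.7 to 130 FPKM in WT LSK to 6211 to 23789.5 FPKM in double knockout LSK, with 9 of 9 called higher, and from 742 to 1366 FPKM in WT MEP to 4164 to 95935 FPKM in double knockout MEP, with 6 of 9 called higher. In the double knockout MEP with the highest sum, *Hbb-b1* is listed at 0 beside 55204 FPKM of *Hba-a1*, a value that may be a failed estimate. The 6 B cell genes summed to 39.5 to 81.6 FPKM in WT LSK and 1121 to 2422 FPKM in double knockout LSK, and to 20.5 to 111 FPKM in WT MEP and 121 to 1867 FPKM in double knockout MEP, with 5 of 6 called higher in each. The 9 genes of the stem and progenitor gate fell from 1159 to 1368 FPKM in WT LSK to 179 to 379 FPKM, with 8 of 9 called lower. In MEP they summed to 96.0 to 199 FPKM in WT and 57.5 to 109 FPKM in the double knockout. Of the 7 tested there, 1 was called higher and 2 lower. The 10 granulocyte and monocyte genes summed to 312 to 742 FPKM in WT MEP and to 6892 to 15262 FPKM in double knockout MEP, with 7 of 10 called higher. In LSK their sums of 8202 to 8427 FPKM in the double knockout lay within the 3298 to 12967.5 FPKM of WT, with 2 of 10 called higher. The 6 megakaryocyte genes summed to 97.4 to 117 FPKM in WT LSK and 14.3 to 49.5 FPKM in double knockout LSK, with 4 of 6 called lower. In MEP they summed to 86.4 to 334 FPKM in WT and 17.8 to 70.6 FPKM in the double knockout, with 2 of 6 called lower. The 5 measured macrophage genes summed to 1.96 to 3.28 FPKM in WT MEP and 7.53 to 679.5 FPKM in double knockout MEP, with 4 of 5 called higher, and 0 of 5 were called in LSK, where WT had 30.3 to 259 FPKM and the double knockout 41.8 to 1295 FPKM. The 8 MEP and early erythroid genes summed to 176 to 243 FPKM in WT LSK and 800.3 to 1013 FPKM in double knockout LSK, with 7 of 8 called higher, and to 3599 to 4818 FPKM in WT MEP and 2018 to 4855 FPKM in double knockout MEP, with 2 called lower. Of the T and NK cell genes, 5 of 6 were called higher and 1 lower in LSK, summing to 211 to 235 FPKM in WT and 105 to 379 FPKM in the double knockout, and 3 of 4 tested were higher in MEP, summing to 36.2 to 69.4 FPKM and 101 to 189.9 FPKM. None of these lists had a defining gene at 0 in every WT or double knockout library of a cell type. Their part in the results below was not tested, and in bulk RNA fewer cells of a type and less RNA per cell cannot be told apart. *Bcor* and *Dnmt3a* kept RNA in their knockouts, with *Bcor* at 22.4 to 23.2 FPKM in *Bcor*-/- LSK against 29.5 to 32.4 FPKM in WT and *Dnmt3a* at 11.3 to 16.9 FPKM in *Dnmt3a*-/- LSK against 16.1 to 19.8 FPKM. In the double knockout *Bcor* had 24.0 to 37.4 FPKM in LSK and 19.6 to 26.7 FPKM in MEP, where WT had 21.3 to 26.9 FPKM, and *Dnmt3a* had 10.4 to 10.9 FPKM in LSK and 3.44 to 6.85 FPKM in MEP, where WT had 5.49 to 6.64 FPKM. Over a whole gene such values do not show whether the targeted exons were lost.

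In WT mice *Trp53* was the most abundant of the 9 genes in both cell types, and the order of the rest changed between them. Its mean was 106 ± 7.44 FPKM (SD, n = 3) in LSK, above 94.6% of the tested genes, and 131 ± 14.5 FPKM (n = 3) in MEP, above 94.3%. In LSK it was followed by *Mdm4* with 45.8 ± 3.99, *Mdm2* with 31.7 ± 2.52 and *Ccng1* with 23.6 ± 2.87 FPKM, whose library values did not overlap with those of their neighbours. *Trp53inp1* at 16.0 ± 3.77 and *Aen* at 13.3 ± 1.06 FPKM did overlap, and *Sesn2* at 3.76 ± 0.480, *Phlda3* at 1.24 ± 0.322 and *Zmat3* at 0.798 ± 0.137 FPKM closed the order, with *Phlda3* and *Zmat3* overlapping. In MEP the order was *Ccng1* with 44.2 ± 4.65, *Mdm4* with 38.0 ± 4.05, *Mdm2* with 23.1 ± 1.13 and *Aen* with 21.4 ± 1.898 FPKM, and *Ccng1* overlapped with *Mdm4* and *Mdm2* with *Aen*. *Sesn2* had 5.97 ± 0.588, *Trp53inp1* 3.55 ± 0.560, *Zmat3* 2.29 ± 0.105 and *Phlda3* 2.08 ± 0.379 FPKM there, again with *Zmat3* and *Phlda3* overlapping.

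**Figure D1:**
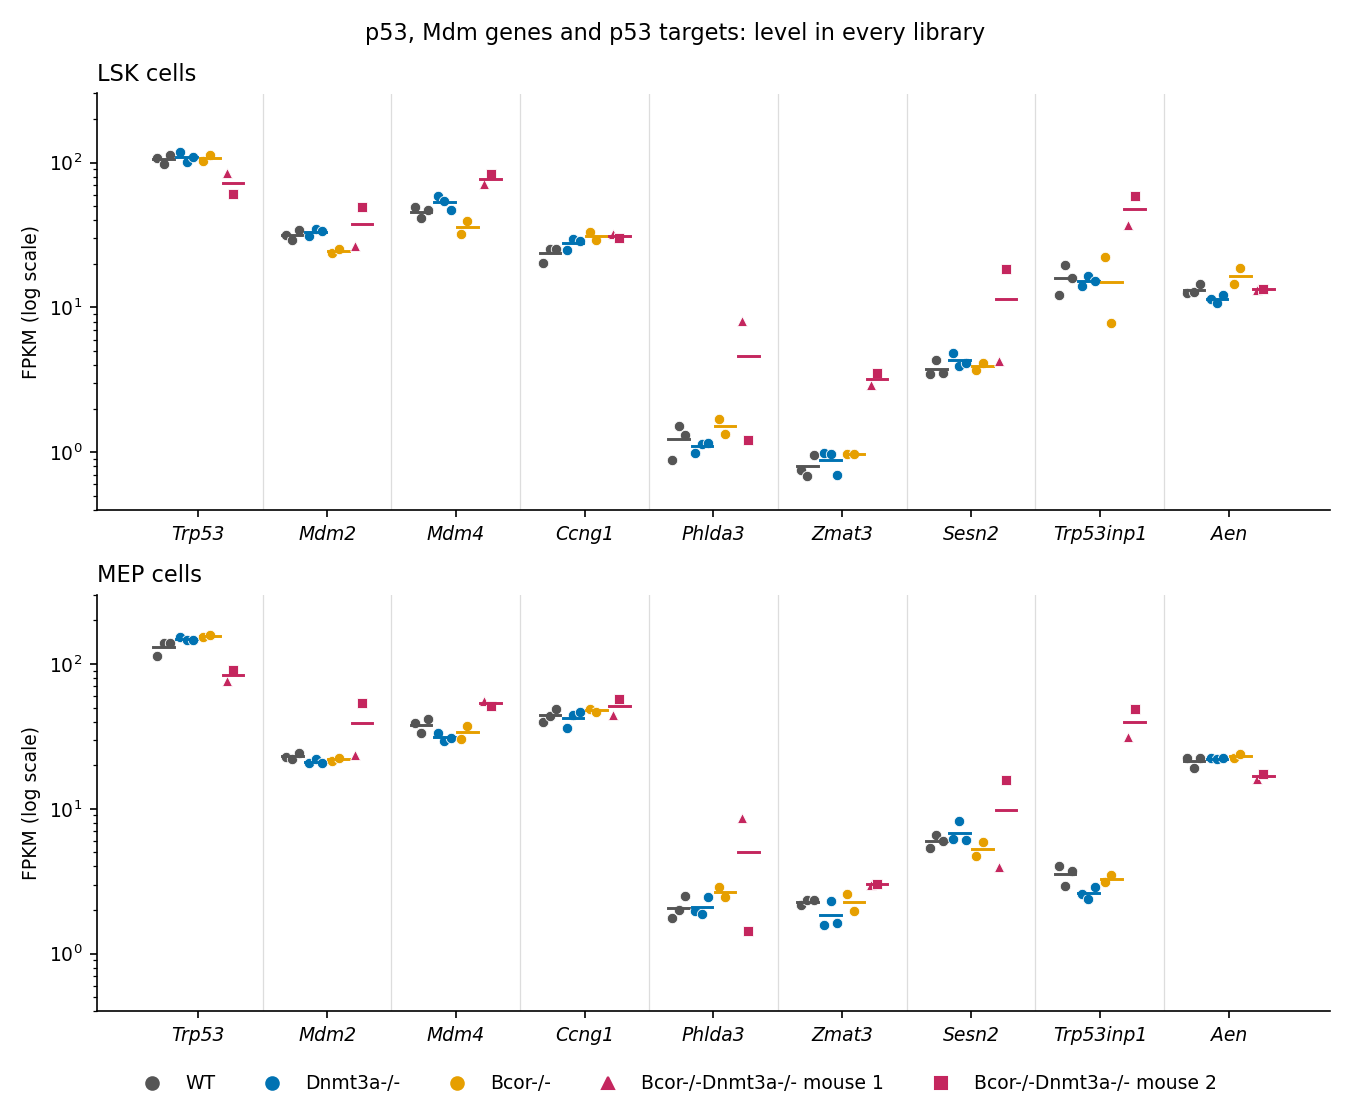
FPKM of the 9 genes in every library, on a log axis, LSK above and MEP below. Points are libraries, horizontal lines are group means, and the double knockout mice have their own symbols. *Trp53* lies below all other libraries in the double knockout of both cell types, while *Phlda3*, *Mdm2* and *Sesn2* are high in 1 double knockout mouse each.

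*Trp53* RNA was lower in the double knockout and *Mdm4* RNA was higher, in LSK as in MEP. In LSK *Trp53* had 107, 97.7 and 112.3 FPKM in WT and 84.6 and 60.3 FPKM in the double knockout. Both double knockout values lay below all 8 others, since *Dnmt3a*-/- had 118, 101 and 109 FPKM and *Bcor*-/- 103 and 113 FPKM. The log2 difference from WT was -0.56 ± 0.15 (SE, limma, adjusted p = 0.0220), which missed the fold threshold and was not called. With quantile normalization it was -0.71 and called (limma, adjusted p = 0.00964). In MEP *Trp53* had 114, 139 and 139 FPKM in WT, 154, 146 and 147 FPKM in *Dnmt3a*-/-, 154 and 159 FPKM in *Bcor*-/-, and 76.5 and 90.3 FPKM in the double knockout. Here too both double knockout libraries were below the other 8, and *Trp53* was called lower, with a log2 difference of -0.64 ± 0.12 (adjusted p = 0.00504). Under alternative settings its adjusted p in limma rose as high as 0.195. Without the library of double knockout mouse 1 the log2 difference was -0.52, under the fold threshold, and without that of mouse 2 it was -0.76. In LSK it was -0.80 and past the threshold without mouse 1, and -0.32 without mouse 2. Where leaving out a library leaves 1 in a group, here and below, that library is assumed to vary like the other groups.

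*Mdm4* in LSK had 49.2, 41.4 and 46.8 FPKM in WT, 58.9, 54.1 and 47.0 FPKM in *Dnmt3a*-/-, 32.2 and 39.4 FPKM in *Bcor*-/-, and 70.8 and 83.0 FPKM in the double knockout. The double knockout was above every other library, and the log2 difference of 0.73 ± 0.14 from WT was called (adjusted p = 0.00521). Under alternative settings its adjusted p in limma rose as high as 0.150. In MEP *Mdm4* had 39.0, 33.5 and 41.4 FPKM in WT, 33.5, 29.3 and 30.6 FPKM in *Dnmt3a*-/-, 30.3 and 37.4 FPKM in *Bcor*-/-, and 55.5 and 51.2 FPKM in the double knockout. The double knockout was again above all others, but its log2 difference of 0.48 ± 0.13 (adjusted p = 0.0244) was under the fold threshold.

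*Mdm2*, the feedback target of p53, differed between the double knockout mice. In LSK it had 31.8, 29.1 and 34.1 FPKM in WT, 31.3, 34.7 and 33.5 FPKM in *Dnmt3a*-/-, and 23.8 and 25.2 FPKM in *Bcor*-/-. Double knockout mouse 1 had 26.4 FPKM, below WT, and mouse 2 had 49.4 FPKM, the highest of the table. In MEP the WT libraries had 22.7, 22.2 and 24.3 FPKM, *Dnmt3a*-/- 20.7, 22.0 and 20.6 FPKM, and *Bcor*-/- 21.3 and 22.5 FPKM. Mouse 1 had 23.6 FPKM there, within the WT values, and mouse 2 had 54.0 FPKM, more than any other MEP library. The mean differences from WT were 0.19 ± 0.22 in LSK (95% interval -0.30 to 0.68, adjusted p = 0.550) and 0.61 ± 0.27 in MEP (interval -0.01 to 1.24, adjusted p = 0.116), and neither was called. Without mouse 2 they were -0.25 and 0.03, and without mouse 1 they were 0.63 and 1.19.

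Of the 6 targets, *Trp53inp1* had the largest log2 difference from WT in both cell types. In LSK the ratio of mean FPKM, with no pseudocount, was 2.999 for *Trp53inp1* and larger for *Zmat3* (4.04), *Phlda3* (3.76) and *Sesn2* (3.03). Its product is a stress protein that helps to phosphorylate p53 and takes part in autophagy. In MEP it had 4.02, 2.93 and 3.71 FPKM in WT, 2.59, 2.37 and 2.88 FPKM in *Dnmt3a*-/-, 3.11 and 3.47 FPKM in *Bcor*-/-, and 31.3 and 48.5 FPKM in the double knockout. The double knockout mean was 11.2 times that of WT, and the log2 difference was 3.14 ± 0.20 (adjusted p = 1.98e-04). In LSK WT had 12.2, 19.7 and 16.0 FPKM, *Dnmt3a*-/- 14.0, 16.4 and 15.3 FPKM, *Bcor*-/- 22.3 and 7.84 FPKM, and the double knockout 36.9 and 58.8 FPKM. The double knockout was above all 8 others in LSK as well, with a log2 difference of 1.51 ± 0.38 (adjusted p = 0.0155). The call in LSK was lost when each genotype had its own variance (limma, adjusted p = 0.238).

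*Zmat3*, a zinc finger protein that binds RNA, was higher in the double knockout of LSK. It had 0.752, 0.690 and 0.953 FPKM in WT, 0.995, 0.973 and 0.700 FPKM in *Dnmt3a*-/-, 0.979 and 0.972 FPKM in *Bcor*-/-, and 2.93 and 3.53 FPKM in the double knockout. The log2 difference in limma was 1.23 ± 0.23 (adjusted p = 0.00365). Since the gene entered the LSK test only through the double knockout, it could hardly have been tested without differing. In MEP *Zmat3* had 2.16, 2.35 and 2.34 FPKM in WT, 1.58, 2.30 and 1.62 FPKM in *Dnmt3a*-/-, 2.57 and 1.97 FPKM in *Bcor*-/-, and 2.98 and 3.02 FPKM in the double knockout. Both double knockout values were above all others, but the test did not separate them from WT, with a log2 difference of 0.28 ± 0.19 (interval -0.15 to 0.72, adjusted p = 0.277).

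*Sesn2*, a sestrin that restrains mTOR signalling when amino acids run short, and *Phlda3*, which blocks Akt at the membrane, each rested on 1 mouse. In LSK *Sesn2* had 3.46, 4.31 and 3.51 FPKM in WT, 4.83, 3.95 and 4.15 FPKM in *Dnmt3a*-/-, and 3.68 and 4.15 FPKM in *Bcor*-/-. Mouse 1 of the double knockout had 4.29 FPKM, within the WT values, and mouse 2 had 18.5 FPKM. The log2 difference of 1.10 ± 0.43 passed the threshold before adjustment but not after it (limma, adjusted p = 0.0894), and it was 0.16 without mouse 2. In MEP *Sesn2* had 5.39, 6.57 and 5.96 FPKM in WT, 6.15, 8.21 and 6.09 FPKM in *Dnmt3a*-/-, and 4.69 and 5.87 FPKM in *Bcor*-/-. Mouse 1 had 3.96 FPKM, the lowest of the 10 MEP libraries, and mouse 2 had 15.8 FPKM, the highest. The difference of 0.39 ± 0.42 (adjusted p = 0.499) was not called.

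*Phlda3* had the opposite pattern. In LSK it had 0.884, 1.51 and 1.31 FPKM in WT, 0.997, 1.14 and 1.16 FPKM in *Dnmt3a*-/-, and 1.70 and 1.34 FPKM in *Bcor*-/-. Mouse 1 of the double knockout had 8.10 FPKM and mouse 2 had 1.21 FPKM. In MEP *Phlda3* had 1.75, 1.99 and 2.49 FPKM in WT, 1.97, 1.87 and 2.45 FPKM in *Dnmt3a*-/-, and 2.89 and 2.47 FPKM in *Bcor*-/-, with 8.68 FPKM in mouse 1 and 1.44 FPKM in mouse 2. Mouse 1 had the highest value of its table in both cell types, and mouse 2 lay within the WT values in LSK and below them in MEP. The mean differences from WT, 1.01 ± 0.49 in LSK (adjusted p = 0.153) and 0.67 ± 0.48 in MEP (adjusted p = 0.305), were not called. Without mouse 1 they were -0.01 and -0.33.

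*Ccng1* and *Aen* were called in no comparison. *Ccng1* encodes cyclin G, which brings a phosphatase to MDM2, and its promoter window holds the pair of half-sites printed above. In LSK it had 20.3, 25.2 and 25.4 FPKM in WT, 25.0, 29.8 and 28.9 FPKM in *Dnmt3a*-/-, 33.3 and 29.2 FPKM in *Bcor*-/-, and 32.1 and 30.4 FPKM in the double knockout. The double knockout did not overlap with WT, yet the difference of 0.39 ± 0.14 (adjusted p = 0.0559) was under the fold threshold, and the *Bcor*-/- libraries differed from WT by as much. In MEP it had 39.9, 43.6 and 49.1 FPKM in WT, 36.2, 44.3 and 46.5 FPKM in *Dnmt3a*-/-, 49.2 and 46.6 FPKM in *Bcor*-/-, and 44.7 and 56.9 FPKM in the double knockout, a difference of 0.19 ± 0.15 from WT (adjusted p = 0.355). *Aen*, a nuclease that promotes apoptosis, had 12.5, 12.8 and 14.5 FPKM in WT LSK, 11.5, 10.7 and 12.2 FPKM in *Dnmt3a*-/-, 14.6 and 18.7 FPKM in *Bcor*-/-, and 13.3 and 13.4 FPKM in the double knockout. The interval of its LSK difference ran from -0.30 to 0.32 on the log2 scale. In MEP *Aen* had 22.6, 19.2 and 22.4 FPKM in WT, 22.4, 21.9 and 22.3 FPKM in *Dnmt3a*-/-, 22.3 and 23.9 FPKM in *Bcor*-/-, and 16.0 and 17.5 FPKM in the double knockout. Both double knockout values were the lowest, with a difference of -0.33 ± 0.11 (adjusted p = 0.0449) that was under the fold threshold.

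Counted together, 4 of the 9 genes were called in the double knockout against WT in LSK, *Mdm4*, *Zmat3*, *Sesn2* and *Trp53inp1*, all higher. The same call was made for 28.3% of all tested LSK genes, 15.0% higher and 13.3% lower. With the adjusted p 3 genes remained, all but *Sesn2*, against 23.7% of all genes. In MEP 2 genes were called, *Trp53inp1* higher and *Trp53* lower, against 30.9% of all genes, 18.5% higher and 12.4% lower. Both held with the adjusted p of this fit, against 25.2% of all genes. Leaving out *Zmat3*, 3 of the other 8 genes were called in LSK. Counts of this size stand too near the shares of all genes to be a result about these 9. Quantile normalization turned the balance of all genes from 1793 higher and 1590 lower to 1565 and 1910 in LSK, and from 2019 and 1357 to 1461 and 2277 in MEP. The median log2 difference in LSK was 0.73 over the 9 genes, 0.56 over the 8 without *Zmat3* and 0.02 over all tested genes, and in MEP it was 0.39 over the 9 genes and 0.02 over all.

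**Figure D2:**
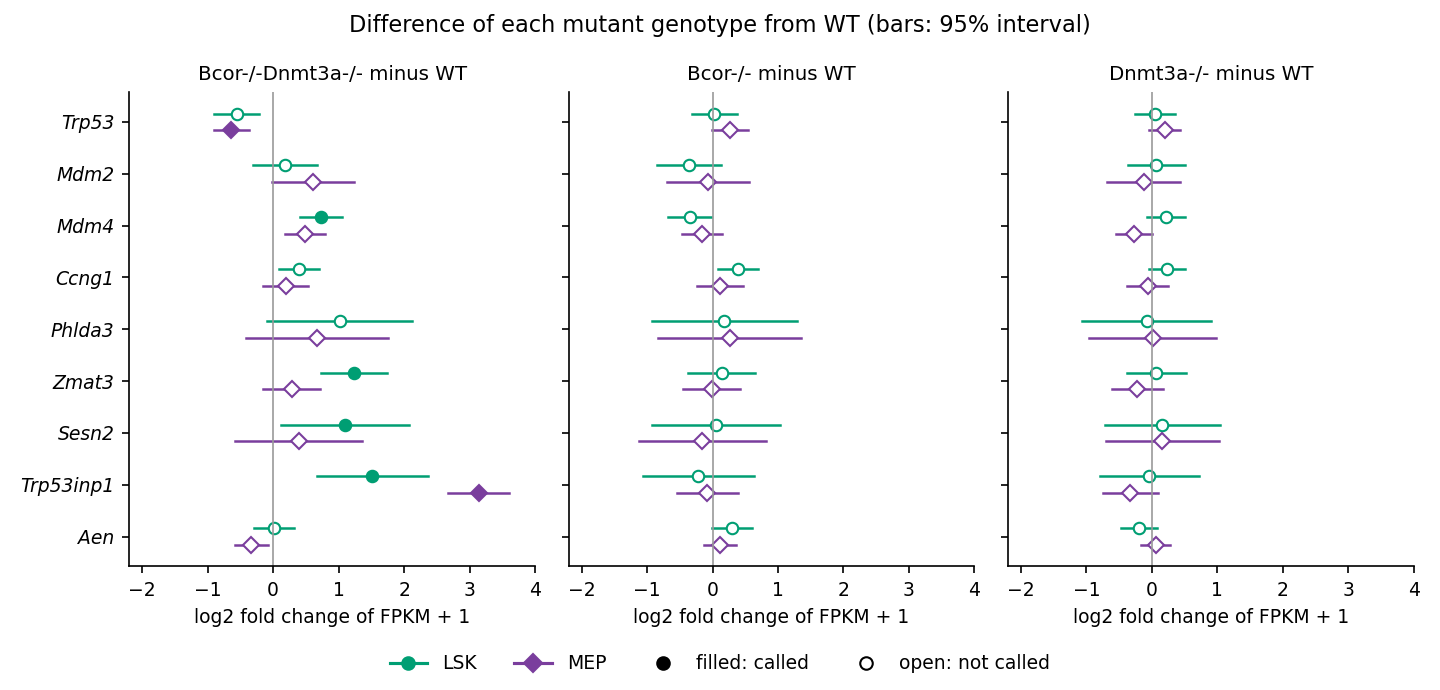
Log2 difference of FPKM + 1 of each mutant genotype from WT for the 9 genes, with 95% intervals from limma, in LSK and MEP. Filled symbols passed the unadjusted p and the fold threshold. All calls are in the double knockout, with 4 in LSK and 2 in MEP, and *Trp53inp1* in MEP lies farthest from 0.

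Neither single knockout changed a gene of the group past the thresholds. In *Bcor*-/- 0 of 9 genes were called in LSK, where 13.2% of all genes were, and 0 of 9 in MEP, where 2.76% were. In *Dnmt3a*-/- 0 of 9 were called in either cell type, against 0.443% of all genes in LSK and 0.412% in MEP. By limma's unadjusted p alone, 2 of 9 passed in *Bcor*-/- LSK against 25.0% of all genes, 0 in *Bcor*-/- MEP against 5.46%, 0 in *Dnmt3a*-/- LSK against 1.31% and 1 in *Dnmt3a*-/- MEP against 2.06%. None of these 3 held with the adjusted p. They were *Mdm4*, lower by -0.35 ± 0.14 (adjusted p = 0.171), and *Ccng1*, higher by 0.39 ± 0.14 (adjusted p = 0.113), in *Bcor*-/- LSK, and *Mdm4*, with -0.27 ± 0.12 (adjusted p = 1), in *Dnmt3a*-/- MEP. The intervals leave room for moderate changes in the genes that vary most between libraries. For *Phlda3* in *Bcor*-/- LSK the interval ran from -0.93 to 1.29 and for *Trp53inp1* from -1.06 to 0.63, whose *Bcor*-/- libraries, 22.3 and 7.84 FPKM, enclosed all WT values. Without *Bcor*-/- replicate 1, the pool of 2 mice, the remaining library of 7.84 FPKM put *Trp53inp1* past the thresholds there, at -0.92, but not with the adjusted p (0.144, limma). Genes of other cells differed in *Bcor*-/- LSK too. The granulocyte and monocyte genes summed to 16279 to 23271 FPKM, the MEP and early erythroid genes to 556 to 927 FPKM and the maturing erythroid genes to 163 to 195 FPKM. The genes of the stem and progenitor gate summed to 599 to 883 FPKM and the T and NK cell genes to 450.0 to 617 FPKM. Each of these sums lay outside the WT range given above. Of the granulocyte and monocyte genes, *Mpo* (4710 and 8426 FPKM, 785 to 1532 in WT), *Elane*, *Prtn3* and *Fcgr3* lay above WT in both *Bcor*-/- libraries. *S100a8* (2796 and 2648 FPKM, 760 to 4389 in WT), *S100a9*, *Ngp* and *Camp* lay within the WT values. *Csf1r* was above WT in 1 library only, and *Ltf* was below WT in 1. The T and NK cell sum was nearly all *Nkg7* (448 and 615 FPKM). Of the same list *Il2rb*, with 1.41 and 1.21 FPKM, lay below the 1.97 to 3.72 FPKM of WT. The part of these lists in these values, and in the comparison of the double knockout with *Bcor*-/- LSK below, was not tested.

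The double knockout was also set against each single knockout, in the same fit. These comparisons share the double knockout libraries with the one above. Against *Bcor*-/- in LSK, 4 genes were called, against 30.6% of all genes. *Trp53* was lower by -0.59 ± 0.16 (adjusted p = 0.0266), and *Mdm4* was higher by 1.08 ± 0.16 (adjusted p = 0.00148), *Zmat3* by 1.09 ± 0.25 (adjusted p = 0.0109) and *Trp53inp1* by 1.73 ± 0.41 (adjusted p = 0.0137). In MEP, 3 were called, against 27.9% of all genes. *Trp53* was lower by -0.91 ± 0.13 (adjusted p = 0.00254), *Mdm4* higher by 0.65 ± 0.15 (adjusted p = 0.0147) and *Trp53inp1* higher by 3.22 ± 0.22 (adjusted p = 4.45e-04).

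Against *Dnmt3a*-/- in LSK, 3 genes were called, against 29.8% of all genes, with *Trp53* at -0.61 ± 0.15 (adjusted p = 0.0147), *Zmat3* at 1.16 ± 0.23 (adjusted p = 0.00457) and *Trp53inp1* at 1.55 ± 0.38 (adjusted p = 0.0131). *Mdm4* differed by 0.52 ± 0.14 (adjusted p = 0.0235), under the fold threshold. In MEP, 4 were called, against 34.7% of all genes. *Trp53* was lower by -0.83 ± 0.12 (adjusted p = 0.00134), and *Mdm4* was higher by 0.76 ± 0.13 (adjusted p = 0.00311) and *Trp53inp1* by 3.47 ± 0.20 (adjusted p = 1.14e-04). *Mdm2* was higher by 0.74 ± 0.27 with an adjusted p of 0.0625, and by 0.15 without mouse 2. Over the 6 comparisons of the double knockout, *Trp53inp1* was called in all 6, *Trp53* in 5, all but that with WT in LSK, and *Mdm4* in 4. The *Trp53* calls in LSK lay close to the fold threshold and ended without double knockout mouse 2, at -0.35 against *Bcor*-/- and -0.36 against *Dnmt3a*-/-. The first also ended without *Bcor*-/- replicate 2 (-0.52) and the second without *Dnmt3a*-/- replicate 1 (-0.55). Some of the other calls ended under an alternative too. *Mdm4* against *Bcor*-/- in MEP fell as low as 0.50, under the fold threshold, and its unadjusted limma p rose as high as 0.0882. That p rose to 0.0522 for *Mdm4* against *Dnmt3a*-/- in MEP and to 0.0503 for *Trp53inp1* against *Dnmt3a*-/- in LSK. Leaving out *Zmat3*, which entered the LSK test only through the double knockout, 3 of 8 genes were called against *Bcor*-/- and 2 of 8 against *Dnmt3a*-/- in LSK.

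To ask whether the double knockout departed from WT equally in both cell types, the MEP value of each mouse was subtracted from its LSK value. Of the 9 genes 3 differed, *Zmat3*, *Sesn2* and *Trp53inp1*, against 28.0% of the 10773 genes tested in both. Leaving out *Zmat3*, whose LSK values passed the minimum only through the double knockout, 2 of 8 differed. For *Trp53inp1* LSK exceeded MEP by 1.39, 2.40 and 1.85 log2 units in the WT mice and by 0.23 and 0.27 in the double knockout mice, whose libraries thus had nearly the same level in both tables. The rise was smaller in LSK, by -1.63 ± 0.44 (adjusted p = 0.0326). For *Zmat3* the WT mice had -0.85, -0.99 and -0.78 and the double knockout mice -0.02 and 0.17, so that the rise was larger in LSK by 0.95 ± 0.16 (adjusted p = 0.00895). For *Sesn2* the WT mice had -0.52, -0.51 and -0.63 and the double knockout mice 0.09 and 0.21, a difference of 0.71 ± 0.18 (adjusted p = 0.0283). In all 3 genes both double knockout mice lay outside the range of WT, which is no separate support, since the calls rest on the same values. With 1 variance per genotype the calls of *Sesn2* and *Trp53inp1* were lost (limma, adjusted p = 0.415 and 0.443), and without the pairing by mouse that of *Sesn2* (adjusted p = 0.499). For *Trp53* the difference was 0.08 ± 0.21 with an interval of -0.40 to 0.56, and for *Mdm4* 0.25 ± 0.16 with an interval of -0.11 to 0.61, so that their shifts in LSK and MEP could not be told apart. *Mdm2* (-0.42 ± 0.14), *Phlda3* (0.35 ± 0.15) and *Aen* (0.34 ± 0.15) passed the unadjusted p but were under the fold threshold, with adjusted p of 0.0638, 0.130 and 0.124.

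**Figure D3:**
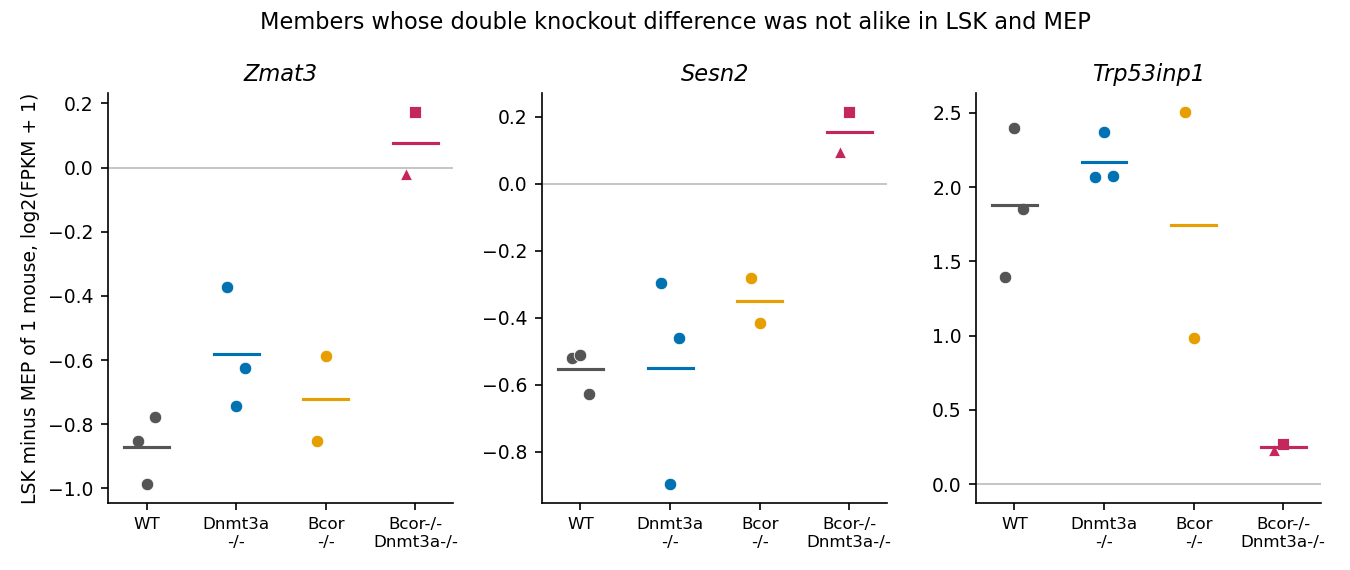
LSK minus MEP value of each mouse, in log2(FPKM + 1), by genotype, for the 3 genes whose double knockout difference was called to differ between cell types. Points are mice and lines are group means. In the double knockout both mice lie close to 0 for all 3 genes, above WT for *Zmat3* and *Sesn2* and below WT for *Trp53inp1*.

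The double knockout mice were then compared with each other over all p53 targets listed for this work, as a description with 1 library per mouse and cell type. Of 40 targets tested in both cell types, 9 were more than 2-fold higher in mouse 2 than in mouse 1 in LSK and 10 in MEP, and 7 of them in both, which is 17.5% of the targets, against 3.22% of all genes. The other way, 2 targets were more than 2-fold lower in mouse 2 in both cell types, 5% against 4.70% of all genes, and 1 target changed direction between cell types. The 7 high in mouse 2 are named here after their values were seen. They were *Sesn2*, *Cdkn1a*, *Btg2*, *Gadd45a*, *Plk3*, *Bbc3* and *Ddit4*, genes of arrest, damage and stress responses and, for *Bbc3* (Puma), of apoptosis. *Bbc3* had 2.53 FPKM in mouse 1 and 33.4 FPKM in mouse 2 in LSK, and 1.78 and 34.2 FPKM in MEP, with 3.51 to 5.08 FPKM in WT LSK and 4.55 to 6.86 FPKM in WT MEP. *Cdkn1a* (p21), the best known arrest gene of p53, had 9.05 and 40.2 FPKM in LSK against 72.6, 29.3 and 35.9 FPKM in WT, and 7.28 and 27.6 FPKM in MEP against 7.47, 4.12 and 9.28 FPKM. It was called in neither cell type (adjusted p = 0.175 and 0.142). *Mdm2* was higher in mouse 2 by 0.88 log2 units in LSK and 1.16 in MEP, and *Sesn2* by 1.88 and 1.76. *Phlda3* and *Polk* were the 2 targets lower in mouse 2, *Phlda3* by -2.04 and -1.99. *Zmat3*, *Mdm4* and *Aen* differed between these mice by at most 0.23 log2 units. Other cells' genes also differed between these mice. The maturing erythroid genes were higher in mouse 2, with 23789.5 against 6211 FPKM in LSK and 95935 against 4164 FPKM in MEP. The macrophage genes were higher in mouse 1, with 1295 against 41.8 FPKM in LSK and 679.5 against 7.53 FPKM in MEP. So was the sum of the B cell genes, with 2422 against 1121 FPKM in LSK and 1867 against 121 FPKM in MEP. In LSK *Cd79b* went the other way, with 245.9 FPKM in mouse 1 and 424 FPKM in mouse 2. *Vpreb1* had 878 against 1.88 FPKM there, and the rest of that list was also higher in mouse 1. Higher in mouse 2 were also the T and NK cell genes in LSK, with 379 against 105 FPKM. So were the megakaryocyte genes, with 49.5 against 14.3 FPKM in LSK and 70.6 against 17.8 FPKM in MEP. The sum of the granulocyte and monocyte genes was higher in mouse 2 in MEP, with 15262 against 6892 FPKM. Of that list *Csf1r* (9.49 against 69.9 FPKM) and *Fcgr3* (27.9 against 63.9 FPKM) were lower in mouse 2 there, and the rest higher. In MEP the T and NK cell sum, 189.9 FPKM in mouse 2 and 101 FPKM in mouse 1, followed *Nkg7* (97.4 against 48.9 FPKM) and *Il2rb* (83.7 against 28.8 FPKM). The T cell genes *Cd3e*, *Cd3d*, *Cd3g* and *Cd8a* were lower in mouse 2 there, *Cd3g* with 4.61 against 12.4 FPKM. In LSK the MEP and early erythroid genes summed to 800.3 FPKM in mouse 2 and 1013 FPKM in mouse 1, and in MEP to 4855 and 2018 FPKM. The genes of the stem and progenitor gate summed to 379 FPKM in mouse 2 and 179 FPKM in mouse 1 in LSK. In MEP they summed to 57.5 and 109 FPKM, with *Kit*, *Ly6a* and *Flt3* lower in mouse 2 and the rest of that list higher. The part of these lists in the differences between the mice was not tested.

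**Figure D4:**
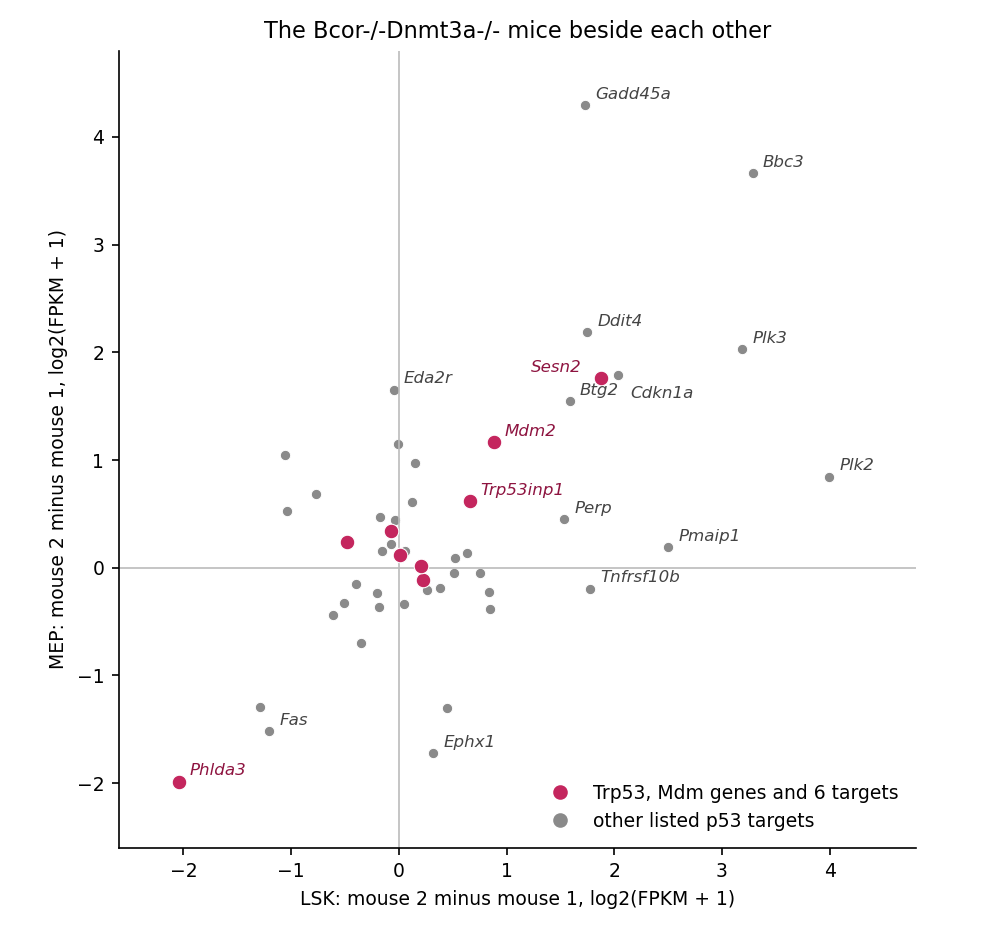
Difference between double knockout mouse 2 and mouse 1 in log2(FPKM + 1), LSK on the horizontal and MEP on the vertical axis, for the 9 genes and the other listed p53 targets. *Sesn2* and *Mdm2* lie to the upper right with *Bbc3*, *Plk3*, *Cdkn1a*, *Btg2*, *Ddit4* and *Gadd45a*, and *Phlda3* to the lower left.

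The wider p53 pathway was followed in lists of 71 genes, of which 70 were measured, 65 tested in LSK and 60 in MEP. In the double knockout 10 rose and 6 fell in LSK, 24.6% of the genes tested, and 16 rose and 5 fell in MEP, or 35.0%, next to the 28.3% and 30.9% of all genes given above. In *Bcor*-/- 4 rose and 4 fell in LSK, 12.3% against 13.2% of all genes, and 0 rose and 2 fell in MEP, 3.33% against 2.76%, and in *Dnmt3a*-/- 0 were called in either cell type. With the adjusted p, 5 of the 8 calls in *Bcor*-/- LSK held, 4 of them among the repair and metabolism targets, of which 33.3% were called. These 4, named after their values were seen, were *Dram1* (2.04 ± 0.33), *Tigar* (1.10 ± 0.26) and *Rps27l* (0.87 ± 0.22), which rose, and *Sesn1* (-0.66 ± 0.13), which fell. The 2 that fell in *Bcor*-/- MEP, *Plk2* (-1.23 ± 0.34) and *Gls2* (-0.69 ± 0.22), did not pass with the adjusted p. Without the genes that passed the minimum only through the double knockout, *Cdkn2a* in LSK and *Dram1* and *Ephx1* in MEP, 9 rose and 6 fell of 64 in LSK and 14 rose and 5 fell of 58 in MEP.

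Among the 9 arrest genes, 1 rose in LSK and 4 rose in MEP, where the list's median was 0.89 against 0.02 over all genes. Of all genes 15.0% rose in LSK and 18.5% in MEP, and 0 of these calls in LSK and 2 in MEP held with the adjusted p. *Sfn* (14-3-3 sigma), a checkpoint protein, had 1.72, 1.79 and 2.44 FPKM in WT MEP and 4.58 and 4.41 FPKM in the double knockout, a log2 difference of 0.89 ± 0.25 (adjusted p = 0.0281). *Plk2*, a polo-like kinase, rose by 1.07 ± 0.34 in MEP (adjusted p = 0.0398). The others called were *Gadd45a* in LSK (adjusted p = 0.0667) and *Btg2* and *Ppm1d* in MEP (adjusted p = 0.0702 and 0.0619), which passed only before adjustment. Of the cell death genes, 4 of 13 rose and 1 fell in LSK, and 2 of 10 rose and 1 fell in MEP, or 38.5% and 30.0% against 28.3% and 30.9% of all genes, with list medians of -0.10 and -0.20. *Trp53i11* rose from 22.0, 23.7 and 26.0 FPKM in WT LSK to 119 and 162 FPKM, and it rose in both cell types, by 2.49 ± 0.20 and 2.85 ± 0.44. *Pmaip1* (Noxa), a BH3-only activator of apoptosis, rose by 2.24 ± 0.57 in LSK, with 4.92, 5.11 and 4.29 FPKM in WT and 10.4 and 63.6 FPKM in the double knockout, and by 1.35 ± 0.39 in MEP. The death receptor gene *Fas* rose in LSK by 1.58 ± 0.42. *Dapk1*, a kinase of cell death, fell in both cell types, from 8.11, 7.25 and 7.16 FPKM in WT LSK to 1.002 and 2.11 FPKM and by -1.63 ± 0.16 in MEP.

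Of the repair and metabolism targets, 2 of 12 rose and 1 fell in LSK, or 25.0% against 28.3% of all genes. In MEP 5 of 12 rose and 3 fell, or 66.7% against 30.9% of all genes. Without *Dram1* and *Ephx1*, which passed the minimum in MEP only through the double knockout, 3 of 10 rose and 3 fell there. *Xpc*, which finds damaged bases for nucleotide excision repair, fell in LSK from 54.6, 54.6 and 49.1 FPKM to 20.1 and 15.5 FPKM, or by -1.52 ± 0.12. *Pml*, the scaffold of nuclear bodies, rose there from 29.5, 28.4 and 31.4 FPKM to 55.7 and 57.9 FPKM, by 0.91 ± 0.12. The epoxide hydrolase gene *Ephx1* rose by 2.54 ± 0.19 in LSK. In MEP *Sesn1*, the sestrin next of kin to *Sesn2*, had 20.4, 16.8 and 20.9 FPKM in WT and 39.9 and 61.5 FPKM in the double knockout, a rise of 1.32 ± 0.18. The autophagy gene *Dram1* rose in MEP by 1.68 ± 0.25, the glutaminase gene *Gls2* fell by -1.30 ± 0.22, and *Rps27l*, which may share reads with its near-identical paralog *Rps27*, fell by -0.59 ± 0.15. None of the 3 tested feedback genes was called in either cell type.

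Upstream of p53, 1 of 7 kinases and damage sensors rose and 2 fell in LSK, and 2 rose in MEP, or 42.9% and 28.6% against 28.3% and 30.9% of all genes. With the adjusted p, 1 of the 3 calls in LSK and both in MEP held. *Hipk2*, a kinase that phosphorylates p53, rose in both, from 8.06, 7.77 and 10.6 FPKM to 17.8 and 14.9 FPKM in LSK and from 5.49, 5.18 and 5.92 FPKM to 12.7 and 55.2 FPKM in MEP. *Trp53bp1*, which binds chromatin at DNA breaks, rose in MEP by 1.51 ± 0.31. Of the binding partners and modifiers of p53 or MDM2, 2 of 21 rose and 2 fell in LSK, and 3 of 19 rose and 1 fell in MEP, or 19% and 21.1%, below the shares of all genes. Without *Cdkn2a*, which passed the minimum in LSK only through the double knockout, 1 of 20 rose there. *Trim28*, a corepressor that also binds MDM2, fell in both, from 236, 210 and 216 FPKM to 150.4 and 118 FPKM in LSK and from 208, 228 and 214 FPKM to 134 and 111 FPKM in MEP. The ubiquitin ligase gene *Trim24* rose in LSK by 0.65 ± 0.14, *Ppp1r13b* (ASPP1), a cofactor of p53 in apoptosis, fell in LSK by -1.26 ± 0.38, and the acetyltransferase gene *Crebbp* rose in MEP by 0.80 ± 0.21. *Cdkn2a*, one product of which binds MDM2, is listed at 0 in all 3 WT LSK libraries and at 11.1 and 0.887 FPKM in the double knockout.

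As a description without a test, the genes most like *Trp53* over the 20 libraries, each cell type centred on its WT mean, were *Stat5a* (Pearson r = 0.94), *Pelp1* (0.93) and *Trim28* (0.93) among 10773 genes. For *Mdm2* they were *Serpinb6b* (0.96), *Lysmd3* (0.95) and *Sertad2* (0.95). The points share genotype groups, and the LSK and MEP libraries come from the same mice.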

How the data were processed

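RNA of sorted LSK and MEP cells was measured in 10 libraries each. The FPKM values were used as deposited by the authors. The submitters' processing notes name STAR 2.5.1b, SAMtools 1.9, Cufflinks 2.2.1 and the build mm9, and how the values were scaled within a table, the annotation and the use of strand are not given in the sources used here. From these values log2(FPKM + 1) was computed, and genes with a mean below 1 FPKM in a cell type were left out. Genotypes were compared with limma 3.58.1 in R 4.3.3, with a mean-variance trend and 1 mean per genotype, and p-values were adjusted by Benjamini-Hochberg over all tested genes. The call thresholds follow the study's methods, and its test is not given in the sources used here. The model was tested on simulated data in which a gene had the same spread in every genotype. That test does not cover the wider spread between the double knockout libraries. LSK and MEP libraries of the same mouse were paired, and equal replicate numbers in different genotypes are different mice. The 9 genes are all named, and from each wider list up to 3 genes per direction and cell type, those with the largest change among calls whose adjusted p was under 0.05 and whose libraries lay apart from WT. The genes and lists were chosen with earlier results of these data known. Promoter windows were searched with Python 3.11.15, and plots drawn with matplotlib 3.10.9. Alternatives changed the pseudocount, filter, scaling, variance model, thresholds, block and libraries.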

Additional observations from a re-analysis of the deposited data

Results flagged for a closer look

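For 3 of the 9 genes the double knockout effect differed between LSK and MEP by the paired test of that difference in limma. This share is near the 28.0% of all 10773 genes that differed, and 2 of 8 are left without *Zmat3*. It was larger in LSK by 0.948 log2 units for *Zmat3* (adjusted p = 0.00895) and by 0.706 for *Sesn2* (adjusted p = 0.0283), and smaller in LSK for *Trp53inp1*, by -1.63 (adjusted p = 0.0326). For each of the 3 genes both double knockout mice lay outside the range of the 3 WT mice, in the same values that gave the calls. With 1 variance per genotype 1 of the 3 calls remained, that of *Zmat3*, and only before adjustment (limma, adjusted p = 0.296). *Zmat3* passed the minimum in LSK only through the double knockout, whose excess this test measures, so its value is a description here.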

How the results depend on the processing

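With a fold change above 2, 1 gene each was called in MEP for the double knockout against WT, against *Bcor*-/- and against *Dnmt3a*-/-, beside 15.8%, 13.9% and 17.9% of all genes, and 1 for the difference between LSK and MEP, beside 14.2%, where 1 variance per genotype also left 1, beside 13.2%. Quantile normalization turned the sign of 4 uncalled values, *Aen* against WT in LSK (-0.087), *Zmat3* in MEP against WT (-0.14) and against *Dnmt3a*-/- (-0.018), and *Trp53* between LSK and MEP (-0.0128). Calls changed with it too. In LSK *Trp53* became called against WT (-0.71) and was no longer called against *Bcor*-/- (-0.58). Calls were gained for *Aen* against *Bcor*-/- in MEP (-0.60) and for *Phlda3* against *Dnmt3a*-/- in LSK (1.11) and between LSK and MEP (0.67). The same normalization moved the median of all genes to -0.08 in LSK and -0.17 in MEP. It moved the calls of all genes from 1793 higher and 1590 lower to 1565 and 1910 in LSK, and from 2019 and 1357 to 1461 and 2277 in MEP. The cause was not tested. Leaving out 1 library at a time, the genes called ranged from 0 to 1 for *Bcor*-/- in LSK, from 3 to 5 for the double knockout against *Dnmt3a*-/- in LSK, and from 2 to 6 against *Bcor*-/- in MEP, with the highest counts of the last 2 reached without double knockout mouse 1. In those 2 fits the remaining library is assumed to vary like the other groups, and the calls of all genes rose too, from 3559 to 4802 and from 3045 to 4347. The log2 difference from WT then ranged in LSK from -0.25 to 0.63 for *Mdm2*, -0.0065 to 2.03 for *Phlda3* and -0.0274 to 0.0695 for *Aen*, and in MEP from -0.33 to 1.66 for *Phlda3* and -0.49 to 1.27 for *Sesn2*. Between LSK and MEP it ranged from -0.28 to 0.44 for *Trp53* and -0.0058 to 0.41 for *Ccng1*. In LSK, 3 genes were called against WT without WT replicate 1 or 3 and 5 without replicate 2, beside 4 in the main fit. In MEP, 3 were called against *Dnmt3a*-/- without *Dnmt3a*-/- replicate 1 or 3 and 5 without replicate 2, also beside 4. Against *Bcor*-/- in LSK such fits leave 1 library in a group, so only log2 differences are given. They were 0.98 for *Mdm2* and 1.99 for *Sesn2* without double knockout mouse 1, and 1.86 for *Phlda3* without mouse 2. With the replicate number as a replicate block, 4 genes were called against WT in LSK and 2 in MEP, beside 3225 and 3385 of all genes. The only count to move was that against *Dnmt3a*-/- in LSK, from 3 to 2, where the calls of all genes went from 3559 to 3422. Same-numbered libraries of different genotypes come from different mice by their labels. They correlated from -0.08 to 0.08 in LSK, with 0 of 13 pairs over 0.1, and from -0.22 to 0.39 in MEP, with 8 of 13 over 0.1. Without the pairing by mouse, 2 genes were called between LSK and MEP, and the calls of all genes went from 3016 to 2508. A filter at 5 FPKM gives no value for *Zmat3* and *Phlda3*. A filter on the 8 libraries other than double knockout, chosen after seeing the data, gives no value for *Zmat3* in LSK.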
